A study of Mus musculus with 20 samples.

Results

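The 8 voltage-gated potassium channel genes described here were followed across the hippocampus and neocortex of WT and miR-324-null mice. They are *Kcna1*, *Kcna2*, *Kcna4* and *Kcna6* of the Kv1 family, *Kcnb2* of the Kv2 family, and *Kcnc1*, *Kcnc2* and *Kcnc4* of the Kv3 family. They were chosen by name, as 8 of the 35580 genes in the deposited tables, and the 23 annotated transcripts of these genes were summed per gene. All 8 passed the filter on low counts in every comparison, and their estimated counts in a library lay between 179 for *Kcna4* and 6607 for *Kcna2*.

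In GRCm38, *Kcna1* (ENSMUSG00000047976) lies at chr6:126640397-126646384 and *Kcna6* (ENSMUSG00000038077) at chr6:126708329-126740674, both on the minus strand. *Kcna2* (ENSMUSG00000040724) lies at chr3:107101146-107115005 on the plus strand and *Kcnc4* (ENSMUSG00000027895) at chr3:107438303-107459552 on the minus strand. *Kcna4* (ENSMUSG00000042604) lies at chr2:107290639-107298502, *Kcnb2* (ENSMUSG00000092083) at chr1:15287254-15723750, *Kcnc1* (ENSMUSG00000058975) at chr7:46396497-46438704 and *Kcnc2* (ENSMUSG00000035681) at chr10:112271121-112467024, all on the plus strand.

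The study asked which transcripts differ when miR-324 is absent, beside recordings of excitability in hippocampal slices from other mice of these lines. There were 20 libraries, from 5 WT hippocampus, 5 miR-324-null hippocampus, 5 WT neocortex and 5 miR-324-null neocortex samples. The mice were males of strain C57BL/6J aged 13.5 months. The miR-324-null mice carry a CRISPR/Cas9 deletion of the *Mir324* locus in every cell, and WT controls lack it. The sources name no treatment for either group. Founders of mixed C57BL/6 and CBA/ca background were backcrossed to C57BL/6J, and the genotypes were then kept as separate lines, so that genotype and line cannot be told apart. The labels call the second tissue cerebral cortex and the study neocortex. Expression from the deleted locus was not analysed here, so the genotype labels were not checked by it.

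Kv channels open when the membrane is depolarised and let potassium out of the cell, which ends the action potential and sets how soon the next can follow. Kv1 channels sit mostly on axons and their terminals and open close to the resting potential, Kv2 channels carry a slow current of the cell body and proximal dendrites, and Kv3 channels open only at strongly depolarised potentials and close quickly. Kv3 channels are best known from fast-spiking interneurons of the cortex and hippocampus, and Kv1 channels from the axon initial segment, the regions beside nodes of Ranvier and the mossy fibres.

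The lost miRNA has 2 arms. Their mature sequences (RefSeq, GRCm38.p6) are shown with the seed, bases 2 to 8, in capitals, because matches to the seed are what the 3′UTRs were searched for. Both arms are encoded on the plus strand of chromosome 11, at chr11:70012060-70012082 and chr11:70012095-70012114.
mmu-miR-324-5p: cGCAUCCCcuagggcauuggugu
mmu-miR-324-3p: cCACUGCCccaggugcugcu

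Of the 8 genes, 1 held a match to the miR-324-5p seed (GGGATGC, sense strand of the 3′UTR only) and 2 held a match to the miR-324-3p seed (GGCAGTG) in an annotated 3′UTR. Such a match occurred for miR-324-5p in 10.9% and for miR-324-3p in 19.6% of the 14793 genes examined for it, whose median longest 3′UTR was 1394 bases against 3726 bases for these 8. With the shorter match to bases 2 to 7 (GGATGC or GCAGTG, each contained in the longer motif), 3 of the 8 held one for miR-324-5p, against 32.4% of genes, and 5 of the 8 for miR-324-3p, against 45.9%. The 30 bases around each of the longer matches (GENCODE annotation of GRCm38, plus strand) have the match in capitals. The *Kcna2* match lies at chr3:107113622-107113628 in the 3′UTR of Kcna2-201, and the *Kcnc1* match at chr7:46431744-46431750 in the 3′UTR of Kcnc1-201 only. The *Kcnc2* matches lie at chr10:112464611-112464617 and chr10:112465580-112465586, in the 3′UTRs of Kcnc2-201, Kcnc2-202 and Kcnc2-203. A match is a description of the sequence and not a site shown to be bound, and other forms of either arm with another first base were not searched for.
Kcna2, miR-324-5p: ataaacactcgGGGATGCagagaaagaaaa
Kcnc1, miR-324-3p: aaggcagggctGGCAGTGtggacccagaat
Kcnc2, miR-324-3p, first match: ctgttccttatGGCAGTGctggtttctact
Kcnc2, miR-324-3p, second match: gaattacagagGGCAGTGaatccgatgtag

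The libraries held 12752439 to 19617765 estimated counts, and the sums of markers of the labelled tissues were on the right side. Across the 10 hippocampal libraries the sum of 10 hippocampal field markers lay between 860 and 1003 CPM (counts scaled to a common library size, with TMM factors), against 331 to 490 in the neocortex. The sum of the 9 matched neocortical layer markers lay between 478 and 736 in the neocortex, against 237 to 340 in the hippocampus. Single layer markers did not all follow their sum. In each genotype 6 of the 9 were called lower and 2 higher in hippocampus (edgeR's quasi-likelihood test). Of all genes 18.0% were called lower and 18.1% higher in WT, and 13.6% and 13.8% in miR-324-null mice. Several libraries stood apart from the rest of their group. Choroid plexus markers summed to 4546 in WT hippocampus replicate 3 and 3908 in miR-324-null hippocampus replicate 5, against 40.2 to 140 in the other hippocampal libraries. In neocortex they summed to 801 in miR-324-null replicate 2 and to 15.8 to 64.2 in the others. The dentate granule cell marker *Dsp* stood at 9.76 and 15.4 CPM in miR-324-null hippocampus replicates 1 and 2, against 29.0 to 68.9 in the other hippocampal libraries. In these 2 libraries the field marker *Prox1* was also the lowest of the group, at 53.4 and 65.0 CPM. Other markers were the highest of the group there. These were the field markers *Fibcd1* (221 and 225) and *Bok* (63.4 and 79.2) and the interneuron marker *Sst* (271 and 246). Striatal neuron markers summed to 189 to 457 in WT neocortex, with replicate 2 highest, and to 281 to 689 in miR-324-null neocortex, with replicate 3 highest. The medians were 224 and 379. All 7 striatal markers were fitted higher in miR-324-null than in WT neocortex, with a median log2 fold change of 1.03, against 0.00 for all genes. Of the 7, 6 had an unadjusted *p* value below 0.05, against 12.2% of all genes, and none passed (edgeR's quasi-likelihood test). Thalamic markers were highest in WT hippocampus replicate 5, at 178, and lay between 69.2 and 153 elsewhere. Interneuron markers summed to 860 to 1113 in hippocampus and 1079 to 1234 in neocortex, and oligodendrocyte markers to 4223 to 7569 and 4692 to 7674. Astrocyte markers summed to 1260 to 1590 in hippocampus and 856 to 1203 in neocortex, microglial markers to 209 to 279 and 178 to 243, and endothelial markers to 150 to 224 and 175 to 242. None of these markers was at 0 in all libraries of a group. In tissue of this kind fewer cells of a type and less RNA per cell cannot be told apart.

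Levels were compared between genes in TPM, which takes transcript length into account. In WT hippocampus *Kcnc1* (Kv3.1), the Kv3 subunit of fast-spiking cells, was highest at 51.9 ± 5.22 TPM (SD, n = 5). *Kcnc2* (Kv3.2), found in much the same interneurons, followed at 39.4 ± 3.26. *Kcna6* (Kv1.6) at 34.8 ± 2.81 and *Kcnc4* (Kv3.4), a subunit with fast inactivation, at 34.6 ± 3.57 could not be ordered beyond their spread. *Kcna2* (Kv1.2) at 27.2 ± 2.79 and *Kcna1* (Kv1.1), axonal subunits that often share a channel, at 21.9 ± 3.72 came next, with overlapping ranges. *Kcna4* (Kv1.4), the inactivating Kv1 subunit of axon terminals, stood at 8.14 ± 0.994 TPM and *Kcnb2* (Kv2.2) at 2.61 ± 0.396, each below the gene before it in every library and with no overlap of the ranges.

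In WT neocortex the lead of *Kcnc1* was wider, at 73.5 ± 7.94 TPM, and its range did not overlap that of the next gene. *Kcna6* at 47.6 ± 1.61, *Kcnc2* at 47.2 ± 2.88 and *Kcna2* at 46.1 ± 4.95 TPM overlapped one another. *Kcnc4* at 37.4 ± 5.15, *Kcna1* at 28.2 ± 3.36, *Kcna4* at 5.71 ± 0.542 and *Kcnb2* at 3.18 ± 0.630 TPM followed in that order, and from *Kcnc4* down no neighbouring ranges overlapped. *Kcna2*, below *Kcnc4* in all 5 WT hippocampal libraries, was above it in all 5 WT neocortical ones. The miR-324-null groups kept *Kcnc1* first and *Kcna4* and *Kcnb2* last in both tissues.

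**Figure D1:**
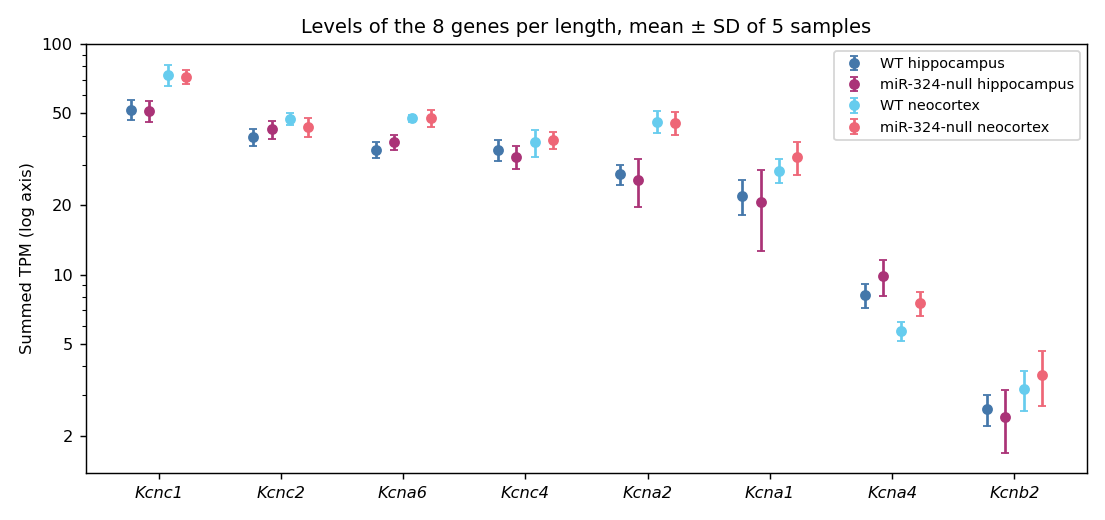
Summed TPM of each gene on a log axis, as the mean of 5 libraries in each of the 4 groups with error bars of 1 SD. *Kcnc1* lies highest in all 4 groups (51.3 to 73.5 TPM) and *Kcnb2* lowest (2.42 to 3.67 TPM), and *Kcna4* alone lies higher in hippocampus than in neocortex in both genotypes.

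The place of *Kcna6* in that order rests on a transcript with no annotated coding part. Kcna6-203, a processed transcript of 2080 bases of which 1974 are also in Kcna6-201, took 53.5% ± 8.28 of the gene's TPM in WT hippocampus and 46.4% ± 3.21 in WT neocortex (SD, n = 5). Without it the other transcripts of *Kcna6*, among them Kcna6-201, which is annotated for nonsense-mediated decay, summed to 16.1 ± 2.60 TPM in WT hippocampus and 25.5 ± 1.51 in WT neocortex. These are below the *Kcna1* means of the same groups. Kcna6-201 and Kcna6-204 share 5824 of their 5827 and 5836 bases, and the share given to Kcna6-204 ran from 0.00299% to 38.7% among the 5 miR-324-null neocortex libraries, so how reads were divided between these forms is uncertain.

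The tissue comparison within WT mice asked which of these genes separate hippocampus from neocortex. Of the 8 genes 7, that is *Kcna1*, *Kcna2*, *Kcna4*, *Kcna6*, *Kcnb2*, *Kcnc1* and *Kcnc2*, passed the quasi-likelihood test of edgeR after Benjamini-Hochberg correction across 14894 genes, and *Kcnc4* did not. The background was 36.1% of all genes tested. Lower in hippocampus were 6 of the 8, against 18.0% of all genes, and higher in hippocampus was 1 of the 8, *Kcna4*, against 18.1%. The median log2 fold change of the 8 was -0.31, against 0.00 for all genes. For 6 of the 8 the 5 hippocampal libraries all lay on one side of the 5 neocortical ones, which held for 26.4% of all genes.

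*Kcna2* showed the largest tissue difference. In WT replicates 1 to 5 its level was 201, 217, 169, 206 and 182 CPM in hippocampus and 348, 309, 326, 340 and 292 CPM in neocortex. Every hippocampal library lay below every neocortical one. The log2 fold change was -0.74 ± 0.07 (SE), a fall of 40% from neocortex to hippocampus (adjusted *p* value 2.65e-06, edgeR's quasi-likelihood test). Humans with altered *KCNA2* can develop epileptic encephalopathy, and the mouse gene is required for normal excitability of axons.

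*Kcna6*, a subunit that assembles with the other Kv1 subunits, gave 81.1, 81.6, 68.8, 73.1 and 73.0 CPM in WT hippocampus and 110, 112, 109, 107 and 115 CPM in WT neocortex. The neocortical libraries were closely grouped and did not overlap the hippocampal ones. Its log2 fold change was -0.56 ± 0.05 (adjusted *p* value 1.63e-06, edgeR's quasi-likelihood test).

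*Kcna4* ran the other way. It gave 21.0, 25.8, 26.4, 21.8 and 21.3 CPM in WT hippocampus and 17.6, 17.4, 16.1, 12.5 and 13.7 CPM in WT neocortex. All 5 hippocampal libraries were above all 5 neocortical ones, by 0.58 ± 0.10 on the log2 scale (adjusted *p* value 6.62e-04, edgeR's quasi-likelihood test).

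Of the 4 Kv1 genes, *Kcna4* and *Kcna2* took different shares of the family's level in the tissues of WT mice, with no overlap of ranges. *Kcna4* made up 8.86% ± 1.13 of their summed TPM in WT hippocampus and 4.48% ± 0.324 in WT neocortex, while *Kcna2* made up 29.5% ± 1.21 and 36.1% ± 1.54 (SD, n = 5). *Kcna1*, at 23.7% ± 3.13 and 22.0% ± 1.36, and *Kcna6*, at 37.9% ± 3.71 and 37.5% ± 2.68, had overlapping ranges. The shares were not tested. In miR-324-null samples *Kcna4* made up 10.5% ± 0.584 in hippocampus and 5.70% ± 0.984 in neocortex. Their summed level was 92.1 ± 6.26 TPM in WT hippocampus and 128 ± 8.60 TPM in WT neocortex.

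*Kcna1*, whose loss causes seizures in mice and episodic ataxia in humans, gave 46.9, 57.1, 52.6, 59.0 and 38.3 CPM in WT hippocampus and 71.1, 60.0, 60.3, 69.1 and 60.2 CPM in WT neocortex. The highest hippocampal library, at 59.0, came just under the lowest neocortical one, at 60.0. Its log2 fold change was -0.35 ± 0.10 (adjusted *p* value 0.0155, edgeR's quasi-likelihood test). With all 20 samples in one fit the call was lost, at an adjusted *p* value of 0.156 by the same test of edgeR.

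Of the Kv3 genes, *Kcnc1* and *Kcnc2* fell from neocortex to hippocampus in WT mice and *Kcnc4* did not pass. *Kcnc1* gave 142, 151, 147, 164 and 164 CPM in WT hippocampus and 191, 206, 183, 209 and 172 CPM in WT neocortex, with no overlap. Its log2 fold change was -0.33 ± 0.06 (adjusted *p* value 0.00116, edgeR's quasi-likelihood test). On log2 TPM, which takes the length of the transcripts into account, it was -0.50 (adjusted *p* value 0.00108, limma), and with the length offset in edgeR -0.48. *Kcnc2* gave 99.7, 94.7, 89.0, 108 and 109 CPM in WT hippocampus and 125, 118, 121, 117 and 121 CPM in WT neocortex. It differed by -0.28 ± 0.06 (adjusted *p* value 0.00153, edgeR's quasi-likelihood test), again with no overlap. *Kcnc4* lay between 64.7 and 81.6 CPM in WT hippocampus and 71.6 and 95.4 CPM in WT neocortex, and its difference of -0.09 ± 0.08 did not pass (adjusted *p* value 0.413, edgeR's quasi-likelihood test).

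*Kcnb2*, a delayed-rectifier subunit, lay between 18.9 and 24.4 CPM in WT hippocampus and between 20.3 and 27.6 CPM in WT neocortex. The ranges overlapped, and the log2 fold change was -0.27 ± 0.09 (adjusted *p* value 0.0317, edgeR's quasi-likelihood test). This call did not hold without any one of WT hippocampus replicates 1, 3 or 5 or WT neocortex replicates 1, 2, 3 or 5, where the adjusted *p* value lay between 0.0535 and 0.0852. It was also lost on log2 TPM, with the transcript length offset and with all 20 samples in one fit.

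**Figure D2:**
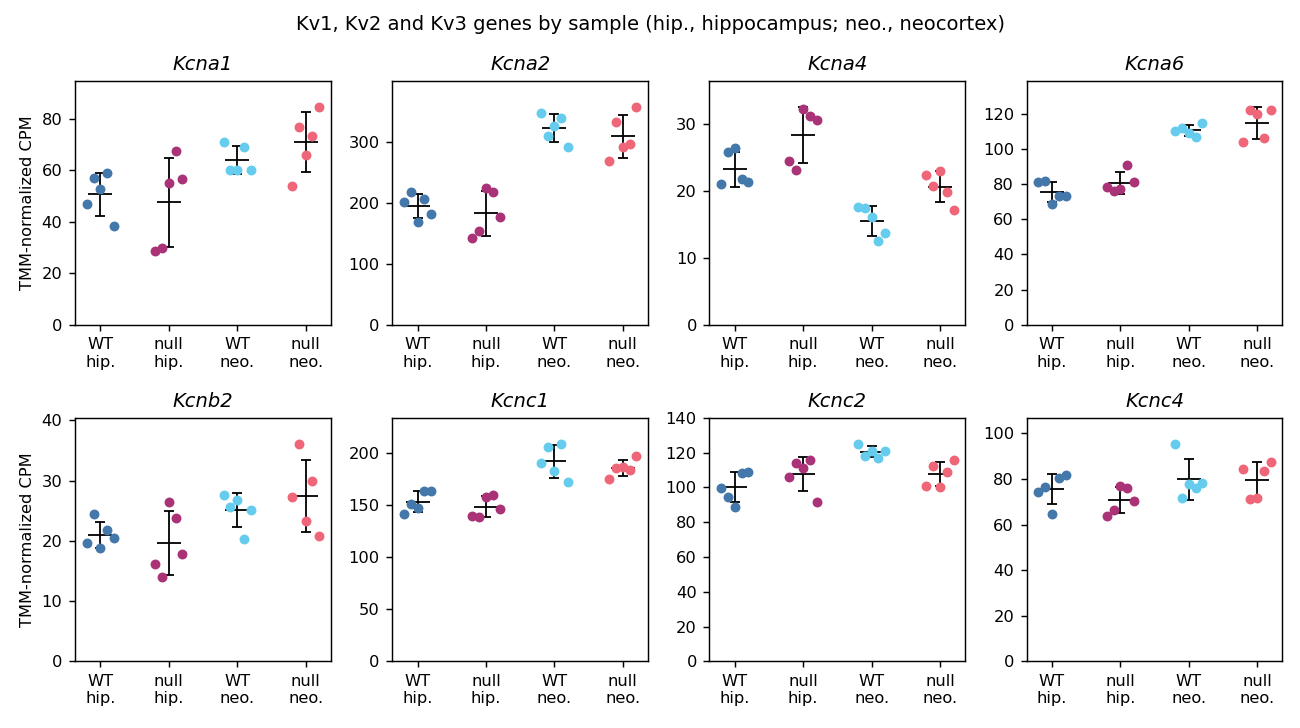
TMM-normalized CPM of each gene in every library, with the mean and SD of each group of 5 as a black bar, on axes that start at 0. *Kcna2*, *Kcna6* and *Kcnc1* are lower in both hippocampal groups than in both neocortical groups, *Kcna4* is higher in WT hippocampus (21.0 to 26.4) than in WT neocortex (12.5 to 17.6), and 2 libraries of miR-324-null hippocampus sit low for *Kcna1* (28.8 and 30.0).

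In miR-324-null mice the same comparison called 4 of the 8, against 27.4% of 15033 genes tested. *Kcna2*, *Kcna6* and *Kcnc1* were lower in hippocampus, 3 of the 8 against 13.6% of all genes, and *Kcna4* was higher, 1 of the 8 against 13.8%. Those 4 genes were also the 4 whose groups did not overlap, against 20.9% of all genes. The median log2 fold change of the 8 was -0.40, against 0.01 for all genes.

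*Kcna2* gave 142, 154, 225, 217 and 176 CPM in miR-324-null hippocampus and 268, 333, 292, 296 and 357 CPM in miR-324-null neocortex. The hippocampal libraries spread more widely than in WT, and none reached the neocortical range. The log2 fold change was -0.75 ± 0.13 (adjusted *p* value 7.07e-04, edgeR's quasi-likelihood test).

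*Kcna4* gave 24.5, 23.1, 32.2, 31.2 and 30.6 CPM in miR-324-null hippocampus and 22.3, 20.8, 23.0, 19.8 and 17.1 CPM in miR-324-null neocortex. The lowest hippocampal library, at 23.1, was just above the highest neocortical one, at 23.0. The log2 fold change was 0.47 ± 0.11 (adjusted *p* value 0.00728, edgeR's quasi-likelihood test), and on log2 TPM it was 0.38 and did not pass (adjusted *p* value 0.0815, limma). *Kcna6* differed by -0.51 ± 0.07 (adjusted *p* value 1.35e-04) and *Kcnc1* by -0.32 ± 0.06 (adjusted *p* value 0.00111, both edgeR's quasi-likelihood test). On log2 TPM the *Kcnc1* difference was -0.49 and also passed in limma. With the transcript length offset the *Kcna6* difference was -0.27 and still passed (adjusted *p* value 0.0140, edgeR).

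*Kcna1* gave 28.8, 30.0, 55.1, 67.4 and 56.8 CPM in miR-324-null hippocampus and 53.9, 77.0, 66.1, 73.2 and 84.6 CPM in miR-324-null neocortex. Hippocampus replicates 1 and 2, the libraries with the lowest *Dsp*, lay well below the other 3, and the groups overlapped. Replicate 3, at 55.1 CPM for *Kcna1*, was also below every WT hippocampal library in *Dsp* (29.0 against at least 31.3) and *Prox1* (69.2 against at least 77.0). The log2 fold change of -0.57 ± 0.21 did not pass (adjusted *p* value 0.0668, edgeR's quasi-likelihood test). Without replicates 1 and 2 it was -0.25 (adjusted *p* value 0.213), and without hippocampus replicate 4 it was -0.73 and passed (adjusted *p* value 0.0223, both edgeR). It was -0.58 and passed with all 20 samples in one fit (adjusted *p* value 0.0179, edgeR) and in DESeq2 with the transcript length offset (adjusted *p* value 0.0279), but not in DESeq2 without it (adjusted *p* value 0.0874). With the replicate block it was -0.63 and passed (adjusted *p* value 0.0215, edgeR). The part of dentate granule cell RNA in this difference was not tested.

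*Kcnb2* followed a similar course. Hippocampus replicates 1 and 2, at 16.1 and 14.0 CPM, were the lowest of the 5. The highest was replicate 3, at 26.4, and neocortex ran from 20.8 to 36.1 CPM. The log2 fold change of -0.48 ± 0.18 did not pass (adjusted *p* value 0.0737, edgeR's quasi-likelihood test), and it was -0.27 without those 2 libraries (adjusted *p* value 0.346, edgeR). It passed without hippocampus replicate 3, at -0.61 (adjusted *p* value 0.0256), and without neocortex replicate 5, at -0.56 (adjusted *p* value 0.0390, both edgeR). DESeq2 also called it, at -0.49 (adjusted *p* value 0.0387) and with the length offset at -0.53 (adjusted *p* value 0.0453), as did edgeR with all 20 samples in one fit, at -0.48 (adjusted *p* value 0.0198).

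*Kcnc2*, like *Kcna1* and *Kcnb2*, was called between tissues in WT and not in miR-324-null mice. It gave 106, 114, 111, 116 and 91.8 CPM in miR-324-null hippocampus and 101, 112, 100, 109 and 116 CPM in miR-324-null neocortex. The groups overlapped almost fully, with a log2 fold change of 0.00 ± 0.07 (adjusted *p* value 0.990, edgeR's quasi-likelihood test). The lowest *Kcnc2* library of each hippocampal group, WT replicate 3 at 89.0 and miR-324-null replicate 5 at 91.8 CPM, was the one with high choroid plexus markers, and *Kcnc2* ran against those markers within the hippocampal groups (r = -0.82 over 10 libraries). Without the libraries of high choroid plexus markers the tissue difference was -0.23 in WT (adjusted *p* value 0.00349) and 0.06 in miR-324-null mice (adjusted *p* value 0.529, both edgeR). *Kcnc4* differed by -0.17 ± 0.08 (adjusted *p* value 0.129, edgeR's quasi-likelihood test).

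Whether the genotype difference depended on the tissue was tested as an interaction in all 20 samples. None of the 8 passed by edgeR's quasi-likelihood test or by DESeq2, against 0.0195% of 15391 genes by edgeR and 0.0715% by DESeq2, and 1 of the 8 had an unadjusted *p* value below 0.05, against 5.57% of all genes. That gene was *Kcnc2*, with a difference of 0.27 ± 0.09 on the log2 scale (*p* value 0.00747, adjusted 0.823, edgeR's quasi-likelihood test). The other 7 differences lay between -0.23 for *Kcna1* and 0.05 for *Kcna6*. The contrast between a tissue difference in WT and none in miR-324-null mice for *Kcnc2* is thus not shown to differ after adjustment.

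**Figure D3:**
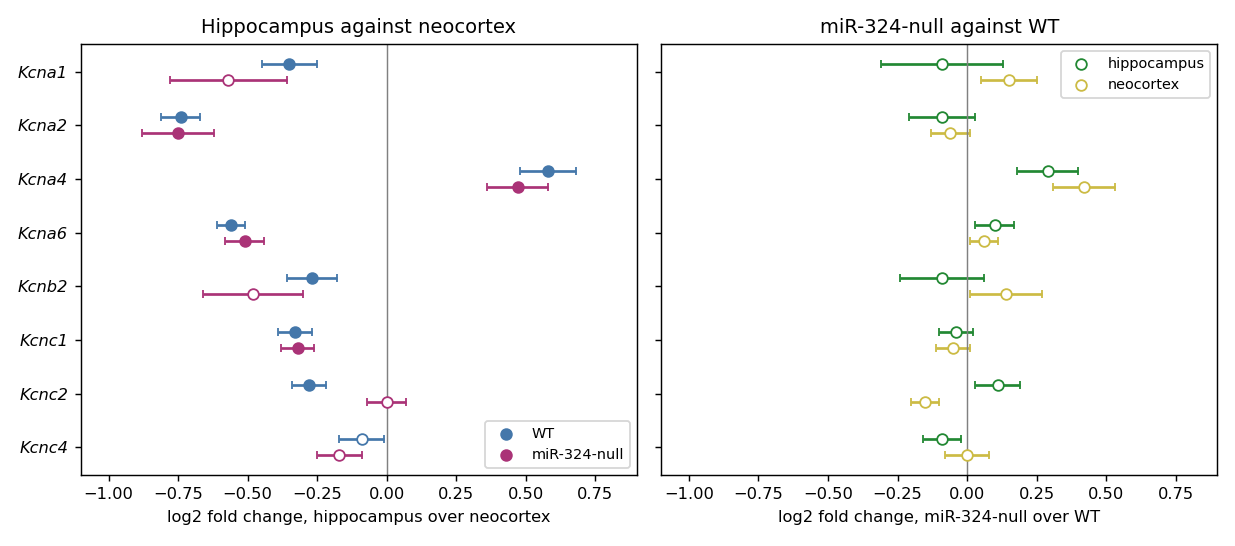
Log2 fold changes with error bars of 1 SE for hippocampus over neocortex (left, by genotype) and miR-324-null over WT (right, by tissue), where filled points passed edgeR's quasi-likelihood test at an adjusted *p* value of 0.05 and open points did not. Tissue differences reach -0.75 and 0.58, while no genotype difference passed and the largest was 0.42, for *Kcna4* in neocortex.

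In the hippocampus, where the question was whether loss of miR-324 changes these channels, none of the 8 genes passed. Over all 14796 genes tested 0.115% passed, of which 10 rose and 7 fell with the deletion. At an unadjusted *p* value below 0.05 stood 1 of the 8, *Kcna4*, against 11.1% of all genes, and DESeq2 called none, against 0.939%. The median log2 fold change of the 8 was -0.07, against 0.00 for all genes, and no gene of the 8 had groups without overlap, against 2.47% of all genes.

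*Kcna4* in the hippocampus differed by 0.29 ± 0.11 on the log2 scale (*p* value 0.0182, adjusted 0.361, edgeR's quasi-likelihood test), from a WT mean of 23.3 ± 2.63 CPM to 28.3 ± 4.19 CPM without miR-324 (SD, n = 5). The libraries given above show 3 miR-324-null samples above all WT samples and 2 within the WT range. The 2 within the range were replicates 1 and 2, and without them the difference was 0.43 (adjusted *p* value 0.173, edgeR). *Kcnc2* differed by 0.11 ± 0.08 and *Kcna6* by 0.10 ± 0.07. *Kcna1*, *Kcna2*, *Kcnb2* and *Kcnc4* each stood at -0.09, with SEs of 0.22, 0.12, 0.15 and 0.07, and *Kcnc1* at -0.04 ± 0.06. Without miR-324-null hippocampus replicates 1 and 2 the values for *Kcna1*, *Kcna2*, *Kcnb2* and *Kcnc1* turned positive, at 0.23, 0.08, 0.11 and 0.01, with no call.

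In the neocortex again none of the 8 passed, against 0.315% of 14930 genes, of which 24 rose and 23 fell with the deletion. At an unadjusted *p* value below 0.05 stood 2 of the 8, *Kcna4* and *Kcnc2*, against 12.2% of all genes, and DESeq2 called 1, *Kcna4*, against 1.61%. The median log2 fold change of the 8 was 0.03, against 0.00 for all genes. The groups did not overlap for 1 of the 8, *Kcnc2*, against 2.24% of all genes.

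*Kcna4* was the nearest of the 8 to a genotype difference. It averaged 15.5 ± 2.31 CPM in WT neocortex against 20.6 ± 2.31 CPM without miR-324 (SD, n = 5), with 4 of 5 miR-324-null libraries above all 5 WT libraries and replicate 5, at 17.1, within the WT range. The log2 fold change was 0.42 ± 0.11 (*p* value 0.00204, adjusted 0.152, edgeR's quasi-likelihood test), and DESeq2 gave 0.41 with an adjusted *p* value of 0.0383. With the transcript length offset it was 0.34 and did not pass in DESeq2 (adjusted *p* value 0.0856) or edgeR (adjusted *p* value 0.236). It passed in edgeR without miR-324-null neocortex replicate 5, at 0.48 (adjusted *p* value 0.0202), and without that library the genes called rose from 47 to 566. That library had the highest sum of neocortical layer markers, at 736 against 478 to 574 in the other 4, and the lowest sum of hippocampal field markers, at 396 against 419 to 490. In WT neocortex the layer markers summed to 623 to 684 and the hippocampal field markers to 331 to 426. *Kcna4* is itself higher in hippocampus. With the sum of striatal markers as a covariate its difference was 0.28 (adjusted *p* value 0.649, edgeR). With the library of highest striatal markers in each genotype left out, WT replicate 2 and miR-324-null replicate 3, it was 0.41 (adjusted *p* value 0.318, edgeR). That fit did not balance striatal markers between the genotypes. In the libraries kept, *Drd1* lay at 7.70 to 10.5 CPM in WT and 12.4 to 21.5 CPM in miR-324-null neocortex. The part of hippocampal or striatal tissue in the *Kcna4* difference was not tested beyond these values.

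All 5 miR-324-null neocortex libraries lay below all 5 WT ones for *Kcnc2*, at 100 to 116 against 117 to 125 CPM. The difference was small, at -0.15 ± 0.05 (*p* value 0.00552, adjusted 0.213, edgeR's quasi-likelihood test), and DESeq2 gave an adjusted *p* value of 0.0753. With the striatal marker sum as a covariate it was -0.10 (adjusted *p* value 0.720, edgeR), and on log2 TPM -0.11 (adjusted *p* value 0.617, limma). *Kcnc2* ran against that sum within the neocortical groups (r = -0.63 over 10 libraries), and the part of striatal tissue in its difference was not tested beyond these values. *Kcna1* differed by 0.15 ± 0.10, *Kcnb2* by 0.14 ± 0.13, *Kcna6* by 0.06 ± 0.05, *Kcna2* by -0.06 ± 0.07, *Kcnc1* by -0.05 ± 0.06 and *Kcnc4* by 0.00 ± 0.08. The 3 genes with a seed match shown above thus stood, in miR-324-null against WT, at -0.09 and -0.06 (*Kcna2*), -0.04 and -0.05 (*Kcnc1*) and 0.11 and -0.15 (*Kcnc2*) in hippocampus and neocortex, and none of these values passed.

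*Kcnc1* is read out as 2 transcripts that code for channels with different C-termini. Kcnc1-201, with 511 codons (Kv3.1a), reads on where the other form is spliced, and has a 3′UTR of 5043 bases, and Kcnc1-203, with 585 codons (Kv3.1b), is joined there to another exon. The sequences are shown because these bases tell the forms apart. They have the last shared bases in lower case, ending at chr7:46428279, and the first bases of each form in capitals (GENCODE annotation of GRCm38, plus strand).
Kcnc1-201: aaattaacagagcagGTAGGAAACCTCTCA
Kcnc1-203: aaattaacagagcagATTCCAAACTGAATG

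By mean TPM the tissue difference of *Kcnc1* in WT mice lay mostly in the longer protein form. Tests of this shift, given below, depended on the tool. Kcnc1-203 stood at 32.2 ± 4.73 TPM in WT hippocampus and 52.9 ± 6.74 in WT neocortex, while Kcnc1-201 stood at 19.7 ± 2.46 and 20.6 ± 1.36 TPM (SD, n = 5). As a share of the gene's TPM, Kcnc1-201 took 36.6, 37.0, 42.0, 42.6 and 32.0% in WT hippocampus and 28.9, 27.9, 26.7, 26.5 and 30.6% in WT neocortex. All 5 hippocampal shares were above all 5 neocortical ones. In miR-324-null samples the shares were 33.3, 36.0, 33.4, 37.4 and 40.0% in hippocampus and 28.6, 32.2, 29.2, 34.0 and 24.7% in neocortex, where 1 neocortical library, at 34.0%, lay above the 2 lowest hippocampal ones.

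*Kcnc2* is split between more transcripts. The full-length forms Kcnc2-201 (642 codons) and Kcnc2-204 (639 codons) part at chr10:112458654 and end in different C-termini, shown in the same way (plus strand).
Kcnc2-201: gaggaatcaggaaagGATATGAAAAATCCC
Kcnc2-204: gaggaatcaggaaagCAAGCACACTAGAGC
Kcnc2-201 took 33.9% ± 5.61 and Kcnc2-204 10.3% ± 1.31 of the gene's TPM in WT hippocampus, and 40.7% ± 4.47 and 9.81% ± 1.25 in WT neocortex (SD, n = 5). Kcnc2-202, annotated with only 240 codons, took 28.8% ± 3.40 in WT hippocampus and 32.4% ± 2.92 in WT neocortex, the second largest share in both. Kcnc2-203, which starts far inside the gene, has only 138 annotated codons and shares 3546 of its 4370 bases with Kcnc2-201, took 25.7, 18.8, 17.6, 24.0 and 31.3% in WT hippocampus and 11.0, 22.4, 17.8, 11.2 and 15.6% in WT neocortex. These ranges overlapped. In miR-324-null hippocampus its share was 36.5 and 37.6% in replicates 1 and 2 and 12.1 to 19.8% in the other 3.

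Transcript usage was tested as the change of each transcript against its gene. By edgeR's diffSpliceDGE no transcript of the 8 genes passed in any of the 4 comparisons. In WT hippocampus against neocortex 0 of 14 member transcripts passed, against 0.126% of 29406 tested, with 2 at an unadjusted *p* value below 0.05, against 2.24% of all transcripts. In miR-324-null mice 0 of 14 passed, against 0.125% of 30476, with 2 below 0.05, against 2.94%. Between genotypes 0 of 13 passed in hippocampus, against 0.0246%, and 0 of 14 in neocortex, against 0.0724%, with none below 0.05 in either, against 1.16% and 1.66%. On counts simulated for the WT comparison diffSpliceDGE recovered only a minority of the changed transcripts, so these counts of 0 do not show that usage was the same. An edgeR test with the gene total as offset, added after seeing the data, also called none of the 8 genes' transcripts in the 4 comparisons. Another test, limma's diffSplice, called 3 in WT, against 1.08% of all transcripts. These were Kcnc1-201 and Kcnc1-203, which differed in opposite directions by 0.65 on the log2 scale (adjusted *p* value 0.0142, limma), and Kcnc2-203, higher in hippocampus by 0.80 (adjusted *p* value 0.0272, limma). The 2 *Kcnc1* values mirror each other with the same *p* value, so they are not separate results. In miR-324-null mice limma called none, against 1.24%, with 0.41 for Kcnc1-201 (adjusted *p* value 0.121) and 0.89 for Kcnc2-203 (adjusted *p* value 0.110). Between genotypes it called none in hippocampus, against 0.155%, and none in neocortex, against 0.319%. On the simulated counts limma's diffSplice recovered more of the changed transcripts than diffSpliceDGE, and for both the share of calls in unchanged genes was well above the threshold. No test here includes the error of dividing reads between transcripts, and the calls in WT thus depended on the tool.

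**Figure D4:**
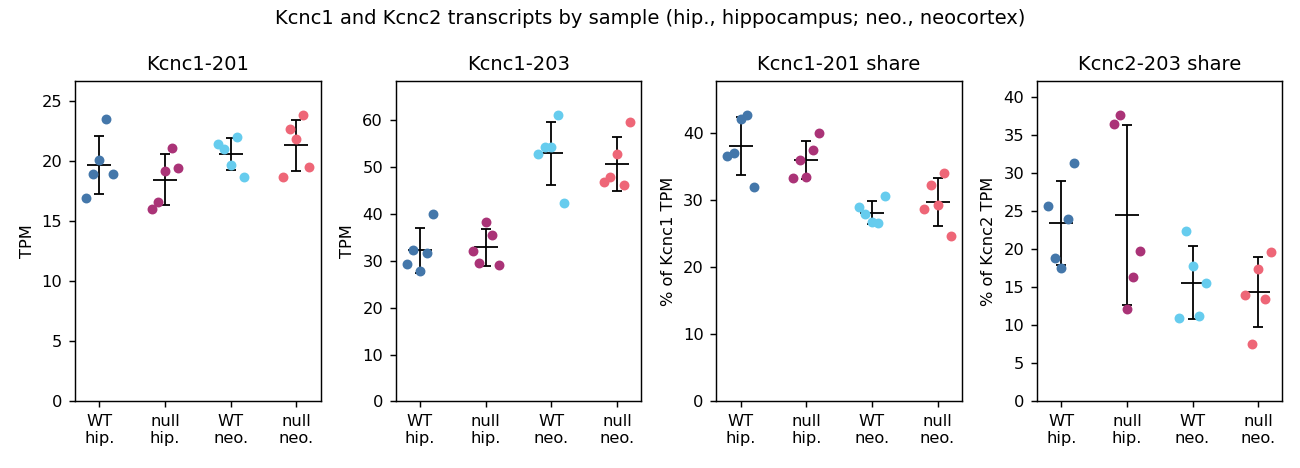
TPM of the 2 coding transcripts of *Kcnc1*, the share of Kcnc1-201 in the TPM of *Kcnc1* and the share of Kcnc2-203 in that of *Kcnc2*, in every library, with the mean and SD of each group of 5 and axes from 0. Kcnc1-201 differs less between groups (means of 18.5 to 21.3 TPM) than Kcnc1-203 does. Kcnc1-203 is higher in neocortex (50.6 and 52.9 TPM) than in hippocampus (32.2 and 32.9 TPM), and Kcnc2-203 is high in 2 libraries of miR-324-null hippocampus.

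For the other genes apart from *Kcna6*, 1 transcript took most of the TPM. Kcna2-201, which carries the 3′UTR of 9401 bases and the miR-324-5p match, took at least 99.4% of *Kcna2* TPM in every library. Kcna1-201 took 91.1% to 94.6% on average and Kcna4-201 95.0% to 100%. Kcnb2-201, whose 3′UTR is 12121 bases long, took 81.7% to 86.1% on average, and *Kcnc4* has a single annotated transcript.

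Kv subunits work with other proteins, and 28 such genes were examined as one list, of which 27 passed the filter. In WT mice 20 of the 27 separated the tissues, 8 higher and 12 lower in hippocampus, against 36.1% of all genes (18.1% higher and 18.0% lower). Their median log2 fold change was -0.13, against 0.00 for all genes. In miR-324-null mice 18 did, 7 higher and 11 lower, against 27.4% of all genes (13.8% higher and 13.6% lower), with a median of -0.10 against 0.01. Between genotypes none passed in either tissue by edgeR's quasi-likelihood test, against 0.115% of all genes in hippocampus and 0.315% in neocortex. An unadjusted *p* value below 0.05 was found for 3 of the 27 in hippocampus, against 1635 of 14796 genes, and for 5 in neocortex, against 1822 of 14930.

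The β-subunits, which bind Kv1 channels from the cytoplasm, split by gene. *Kcnab1* rose in WT hippocampus by 0.75 ± 0.06 (adjusted *p* value 5.36e-07) and *Kcnab2* by 0.70 ± 0.05 (adjusted *p* value 4.24e-07, both edgeR's quasi-likelihood test), whereas *Kcnab3* was lower, at 31.2 ± 11.3 CPM in hippocampus and 89.7 ± 19.0 CPM in neocortex (SD, n = 5; adjusted *p* value 5.78e-05, edgeR's quasi-likelihood test). The electrically silent subunits, which form no channel alone but join Kv2 subunits, included genes that moved in either direction. *Kcnv1* fell by 1.50 ± 0.07 on the log2 scale (adjusted *p* value 4.22e-09) and *Kcns1* by 1.50 ± 0.11 (adjusted *p* value 2.21e-07), and *Kcng2* was higher by 2.32 ± 0.15 (adjusted *p* value 1.00e-07, all edgeR's quasi-likelihood test). In miR-324-null mice *Kcnf1*, *Kcng2*, *Kcnab2*, *Kcnv1* and *Dlg1*, a synaptic scaffold that binds Kv1 channels, had the smallest adjusted *p* values. *Kcnf1* fell by 0.91 ± 0.06 (adjusted *p* value 1.66e-06) and *Dlg1* by 0.70 ± 0.08 (adjusted *p* value 5.77e-05, both edgeR's quasi-likelihood test).

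**Figure D5:**
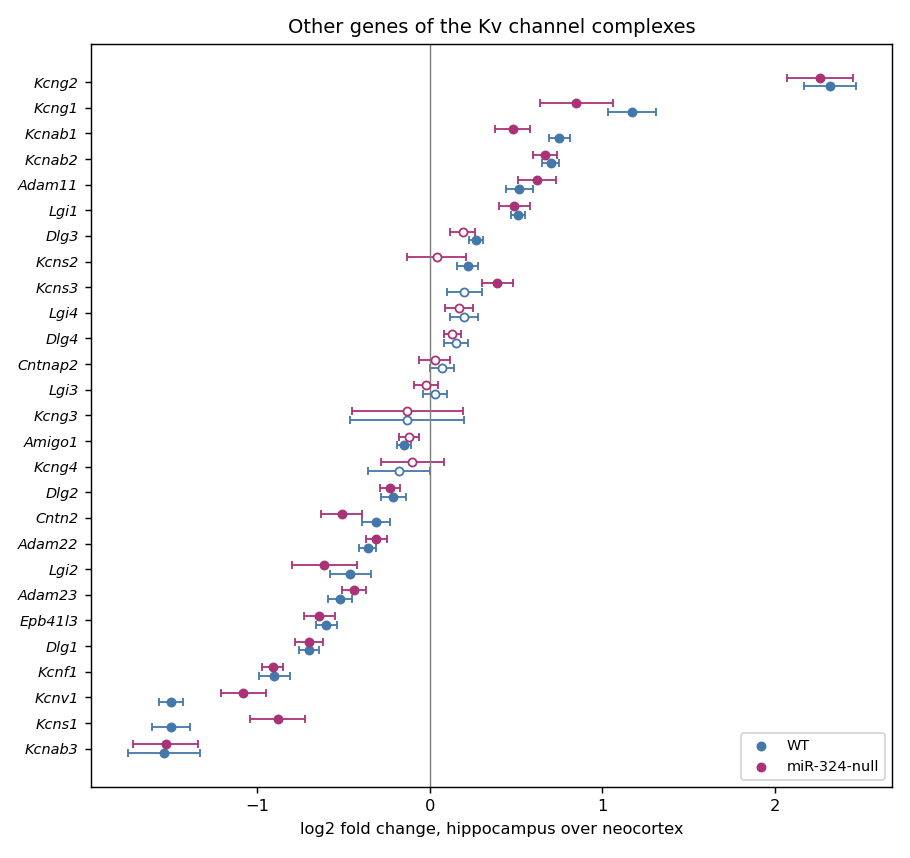
Log2 fold changes of hippocampus over neocortex for the 27 tested genes of the channel complexes, by genotype, with error bars of 1 SE and filled points for genes that passed edgeR's quasi-likelihood test. The genes run from about -1.5 (*Kcnab3*, *Kcns1*, *Kcnv1* in WT) to 2.32 (*Kcng2* in WT), and *Kcnv1* and *Kcns1* lie closer to 0 in miR-324-null mice (-1.08 and -0.88) than in WT (-1.50 each), a difference that did not pass the interaction test.

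Between genotypes the partners nearest to a difference in hippocampus were *Kcnv1* at 0.26 ± 0.07 (adjusted *p* value 0.233), *Kcnab2* at -0.16 ± 0.05, *Kcns1* at 0.23 ± 0.09, *Cntn2*, an axonal adhesion molecule beside nodes of Ranvier, at -0.22 ± 0.12, and *Kcns3* at 0.17 ± 0.10 (the lowest adjusted *p* value of the 5 is given, edgeR). In neocortex they were *Kcnab1* at 0.27 ± 0.07 (adjusted *p* value 0.163, edgeR), *Adam11* at -0.20 ± 0.07, *Kcns1* at -0.37 ± 0.17, *Cntnap2*, which clusters Kv1 channels on the axon, at 0.14 ± 0.06, and *Dlg3* at 0.08 ± 0.04. None of the 27 had a tissue-dependent genotype difference that passed, and *Kcns1*, at 0.61 ± 0.21, had the smallest *p* value (0.00780, adjusted 0.827, edgeR). *Kcns1* gave 15.1 to 19.8 CPM in miR-324-null neocortex replicates 1 to 4 and 31.0 in replicate 5, the library with the highest neocortical layer markers.

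The genes whose log2 CPM followed each member most closely over the 20 samples were ranked by Pearson's r among 15390 genes. For *Kcna2* they were *Cacnb4* (0.99), *Lmtk2* (0.99) and *Tbr1* (0.98), for *Kcna6* *Pak7* (0.97), *Cask* (0.96) and *Arpp19* (0.96), and for *Kcnc1* *Ddit4l* (0.95), *Scn1a* (0.95), the sodium channel of fast-spiking interneurons, and *Ppip5k1* (0.94). For *Kcna1* they were *Ash1l* (0.96), *Gabrb2* (0.95) and *Faxc* (0.94), for *Kcna4* *Lmo7*, *Grm5* and *Gpr155* (0.90 each), and for *Kcnb2* *Baz2b* (0.90), *Mdga2* (0.89) and *Kif1b* (0.89). *Kcnc2* was followed by *Camk1g* (0.85), *2010111I01Rik* (0.82) and *Slc20a1* (0.82), and *Kcnc4* by *B3galt1* (0.83), *Castor2* (0.81) and *Mslnl* (0.81). By Spearman's rank measure at most 1 of the 3 genes named for each member stayed among its nearest 3. The samples share 2 tissues and the libraries that stood apart, so these values describe this set of samples only.

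Among the members themselves *Kcna1* and *Kcna2* moved together most closely after the 4 group means were removed (r = 0.82 over 20 samples, 0.80 in the 10 hippocampal and 0.90 in the 10 neocortical libraries). *Kcna4* moved with *Kcna1* in hippocampus (r = 0.82) and against it in neocortex (r = -0.49). In the hippocampus *Kcna2* (r = 0.92) and *Kcnb2* (r = 0.94) followed the sum of the neocortical layer markers. In the neocortex the same correlations were 0.41 for *Kcna2* and -0.75 for *Kcnb2*. Replicates 1 and 2 of miR-324-null hippocampus had the lowest sums, at 253 and 237, against 276 to 340 in the other hippocampal libraries. Of the 9 layer markers, 6 were called lower and 2 higher in hippocampus in each genotype (edgeR's quasi-likelihood test). Within hippocampus their sum is thus not a measure of neocortical RNA alone. *Kcna4* followed the sum of the striatal markers in hippocampus (r = 0.90) and less closely in neocortex (r = 0.52). These correlations are descriptions over few samples that share libraries.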

How the data were processed

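RNA from 20 samples was sequenced as stranded mRNA libraries. The authors quantified transcripts with kallisto (GRCm38 per the study's methods, while the processing notes name GRCh38 and all identifiers are of the mouse) and deposited, per transcript, estimated counts, TPM and an effective length, another per-transcript value. Estimated counts and TPM were summed per gene over GENCODE M21 (113580 of 115270 transcripts matched), and sums of estimated counts were rounded.

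Genes passing filterByExpr were tested with edgeR's quasi-likelihood test (edgeR 4.0.16, R 4.3.3, TMM scaling), with Benjamini-Hochberg adjustment over all genes and a threshold of 0.05. Levels per library are TMM-scaled CPM computed here. Transcript usage was tested with edgeR's diffSpliceDGE, and limma's diffSplice (3.58.1) was the other test. Alternatives were DESeq2 (1.42.0), transcript length offsets, limma on log2 TPM (pseudocount 0.1), other filters and scalings, a replicate block, one fit for all samples and leaving out libraries. Scripts were tested on simulated data, where the gene tests recovered most of the changes and diffSpliceDGE only a minority.

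Nothing in the labels ties samples of the 2 tissues to one mouse, and *p* values set a difference against the spread between these samples. Libraries held 12752439 to 19617765 estimated counts, and counting precision follows from the counts given. The members, the lists of partners and markers and the tests were chosen with earlier results of these data known. Partners named are the 5 with the smallest *p* values in a comparison, and for the tissues of WT mice also *Kcnab3*, the remaining β-subunit. Genes most like a member are the 3 with the highest Pearson's r. Leaving out libraries with high choroid plexus or striatal or low dentate markers, and the striatal covariate, were chosen after seeing the data.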

Additional observations from a re-analysis of the deposited data

Results flagged for a closer look

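Each group of 5 libraries was examined for a highest or lowest value far from the other 4, for the CPM of the 8 genes and the shares of transcripts that took at least 10% of a gene's TPM in some group. Of 92 such groups, 8 had one, and chance gives about 1 in 20. The only gene level among them was *Kcnc4* in WT neocortex, where replicate 1 stood at 95.4 CPM and the others at 71.6 to 78.4.

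The other 7 were shares of transcripts. In WT neocortex replicate 1, Kcnb2-201 took 67.8% of *Kcnb2* TPM, against 85.3% to 92.2% in the others, and Kcnb2-202 therefore took 32.2%, against 7.80% to 14.7%. Kcna6-204 took 11.9% of *Kcna6* TPM in WT hippocampus replicate 5, against at most 0.578% in the others, and 3.64% in miR-324-null hippocampus replicate 4, against at most 0.0617%. Kcnc2-204 took 12.6% of *Kcnc2* TPM in WT hippocampus replicate 4, against 9.43% to 10.1%. Kcna4-201 took 93.2% of *Kcna4* TPM in WT hippocampus replicate 4 and Kcna2-201 took 99.7% of *Kcna2* TPM in miR-324-null hippocampus replicate 1, against 100% in the other libraries of each group. The causes were not tested.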

How the results depend on the processing

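Of 888 alternative values for single genes, 815 kept their direction and their side of the threshold, 15 lost a call, 11 gained one and 47 changed sign, of which none passed. The tissue differences of *Kcna2*, *Kcna6* and *Kcnc1* kept their calls in both genotypes under all alternatives run. For miR-324-null against WT in hippocampus, the 17 genes called overall became 139 with DESeq2, 85 with DESeq2 and the length offset, 11 on log2 TPM, 4 with the replicate block, 83 with all samples in one fit and 10 to 31 without one library. In neocortex 47 became 240 with DESeq2, 184 with DESeq2 and the length offset, 30 with edgeR and the length offset, 22 on log2 TPM, 30 with the replicate block, 30 without the libraries of high striatal markers, 14 with the striatal covariate and 27 to 566 without one library. For the interaction 3 became 11 with DESeq2, 1 with edgeR and the length offset, 1 on log2 TPM, 0 with the replicate block, 1 without the low dentate libraries, 1 without the striatal libraries and 1 to 20 without one library, the 20 being without miR-324-null neocortex replicate 5. Of the 8 genes, 1 was called in neocortex by DESeq2, 0 by DESeq2 with the length offset and 0 to 1 without one library.

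Without the low dentate libraries the hippocampal genotype values changed sign, to 0.23 for *Kcna1*, 0.08 for *Kcna2*, 0.11 for *Kcnb2* and 0.01 for *Kcnc1*, and so did the interaction values, to 0.09 for *Kcna1*, 0.14 for *Kcna2* and 0.02 for *Kcna4*. The interaction value of *Kcnc1* was -0.02 without the striatal libraries. In neocortex *Kcna2* stood at 0.02 with the striatal covariate, and *Kcna6* at -0.05 and -0.04 with the length offset in DESeq2 and edgeR. *Kcnc4* between genotypes in neocortex, at 0.00, became 0.04 on log2 TPM and 0.11 with the striatal covariate, and *Kcnc2* between miR-324-null tissues, also at 0.00, became -0.01 with RLE factors, DESeq2, no filter or all samples in one fit, -0.04 on log2 TPM, just under 0.00 with the replicate block and -0.02 without the low dentate or the striatal libraries. Without one library the ranges that crossed 0 were -0.24 to 0.05 for *Kcna1* and -0.22 to 0.01 for *Kcnb2* between genotypes in hippocampus, -0.04 to 0.06 for *Kcnc4* between genotypes in neocortex, -0.03 to 0.06 for *Kcnc2* between miR-324-null tissues, and -0.11 to 0.05 for *Kcna2*, -0.03 to 0.05 for *Kcnc1* and just under 0.00 to 0.07 for *Kcna6* in the interaction. None of these values passed, and their causes were not tested.

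For transcript usage by tissue, 3 transcripts of the 8 genes were called in WT by limma and 0 to 1 without one library, and 1 in miR-324-null mice with no filter on low counts and 0 to 1 without one library. Each call without a library, and that with no filter, was of Kcna6-204.

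Replicate numbers did not clearly pair the samples, and the labels do not settle it. Correlations of same-numbered libraries lay between -0.102 and 0.101 across WT tissues and 0.0165 and 0.177 across miR-324-null tissues. Across genotypes they lay between -0.172 and 0.113 in hippocampus and -0.102 and 0.121 in neocortex. Their means, against those of other numbers, were 0.0327 against -0.00822, 0.108 against -0.0269, -0.0618 against 0.0159 and -0.00464 against 0.00122. In the same order 2, 3, 1 and 1 of 5 libraries were closest to their own number. With the replicate block *Kcna1* was called between miR-324-null tissues, at -0.63 (adjusted *p* value 0.0215, edgeR).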
